A study of Mus musculus with 6 samples.

Results

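The endothelial cells of postnatal day 6 (P6) mice with and without the cerebral cavernous malformation gene Pdcd10, also named Ccm3, were compared across genes. They came from 2 single-cell libraries. The WT library carried Mfsd2a-CreERT2 alone, and the KO library carried Mfsd2a-CreERT2 with Pdcd10 fl/fl. Both were given tamoxifen at P1 and harvested at P6, so the controls carry the inducible Cre and the drug as well. Cre was driven from Mfsd2a, a gene of barrier-forming endothelium, and acts only where and while that driver is on. Cell barcodes were kept with at least 500 genes and at most 10% of unique molecular identifiers (UMIs, each 1 captured transcript) from mitochondrial genes. A kept cell was taken as endothelial when it held a UMI of at least 3 of the 6 genes Pecam1, Cldn5, Cdh5, Flt1, Esam and Egfl7. This gave 1380 WT cells (93.2% of 1481 kept) and 857 KO cells (90.0% of 952 kept), or 2237 of the 14165 endothelial cells of the 6 libraries of the series. There was 1 library per genotype, so the spread between animals is unknown and no difference carries a p-value. Every interval is an exact 95% interval for counting error alone.

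Cerebral cavernous malformations are clusters of dilated, leaky capillaries of the central nervous system that arise when endothelial cells lose Krit1, Ccm2 or Pdcd10. Pdcd10 is a small adaptor that joins this complex and the kinases Stk24 and Stk25. The complex restrains the kinase Mekk3 and, through it, the transcription factors Klf2 and Klf4. Brain endothelium is known for tight junctions and carrier proteins that together form the blood-brain barrier.

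The WT and KO libraries held 12080868 and 10807651 UMIs, with a median of 6962 and 9067 UMIs per endothelial cell, and shared 0 cell barcodes. The 10 further endothelial markers were all present in both, whereas the microglial markers Cx3cr1, P2ry12, C1qa, C1qb, C1qc and Trem2 stood at 0 in the endothelial cells of both. The labels give the tissue as retina and the series text speaks of brain endothelium. Of 14 retina markers, 6 were at 0 in the WT and 6 in the KO endothelial cells, among them the photoreceptor genes Rcvrn, Crx, Arr3 and Gngt1 in both. The 14 markers together had 129 UMIs in WT and 110 in KO, of which Sag, another photoreceptor gene, gave 85 and 67. In all, 31 of 46 WT and 34 of 43 KO cells without any of the 6 endothelial genes held neuronal or cerebellar granule neuron markers. Pericyte markers (2 or more of 10) were found in 28.7% of WT and 21.2% of KO endothelial cells, although their summed level was close, 1154 against 1140 UMIs per 1000000 (CPM). The libraries also differed in sex-linked RNA. WT held 11057 Xist UMIs and 0 from Y-linked genes, and KO held 1 and 2, so genotype and this difference cannot be told apart at P6. X-linked genes, Xist among them, had a median log2 ratio of -0.03, against 0.01 for autosomal genes.

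Pdcd10, which lies on chromosome 3, was measured at 104 CPM (97.8 to 110) in WT and 58.4 CPM (53.7 to 63.3) in KO. The KO level was 0.563 of the WT level (0.509 to 0.623). The difference was of a like size in cells that carried arterial markers (0.615), venous markers (0.555) or neither (0.561). In the cells without endothelial genes the level was 61.5 CPM in WT and 62.4 CPM in KO. These rest on 9 UMIs in 46 WT cells and 14 UMIs in 43 KO cells, too few to compare. Reads from the 3' end count a transcript whether or not an upstream exon was removed, so the remaining level does not measure how many cells kept the gene. Of 11 tested genes of the complex and its kinases, Pdcd10 itself included, none was 2-fold apart. Among all tested genes 2.62% were 2-fold higher and 0.617% lower. The median log2 ratio of the 11 was 0.02, and the counting interval of the ratio lay above 1 for 2 genes and below 1 for 5. Krit1 was measured at 48.7 and 51.9 CPM and Ccm2 at 44.7 and 50.6 CPM in WT and KO. Heg1, the membrane receptor that anchors Krit1, stood at 53.4 CPM in WT and 78.7 CPM in KO.

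Across the transcriptome the libraries were close. A gene was tested when its higher library had at least 20 CPM and 30 UMIs, and ratios are log2 of KO over WT with a prior count of 2. Of 5835 tested genes, 90.2% lay within 1.5-fold and the median log2 ratio was 0.01. Of 5568 genes with a mean of at least 20 CPM over both libraries, 2866 were above and 2702 below WT. The genes at least 2-fold apart were mostly higher in KO, 153 genes (2.62%) against 36 lower (0.617%). The asymmetry was larger at 4-fold, with 71 genes higher and 2 lower, Apoe and Xist. Xist, which follows the difference in sex-linked RNA, is thus also counted among the 36 lower genes. The higher genes included 36 listed interferon-response genes, 10 of MHC class I presentation and 10 targets of p53, and the lowest ratios among the named genes were those of Apoe and Selenop.

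**Figure D1:**
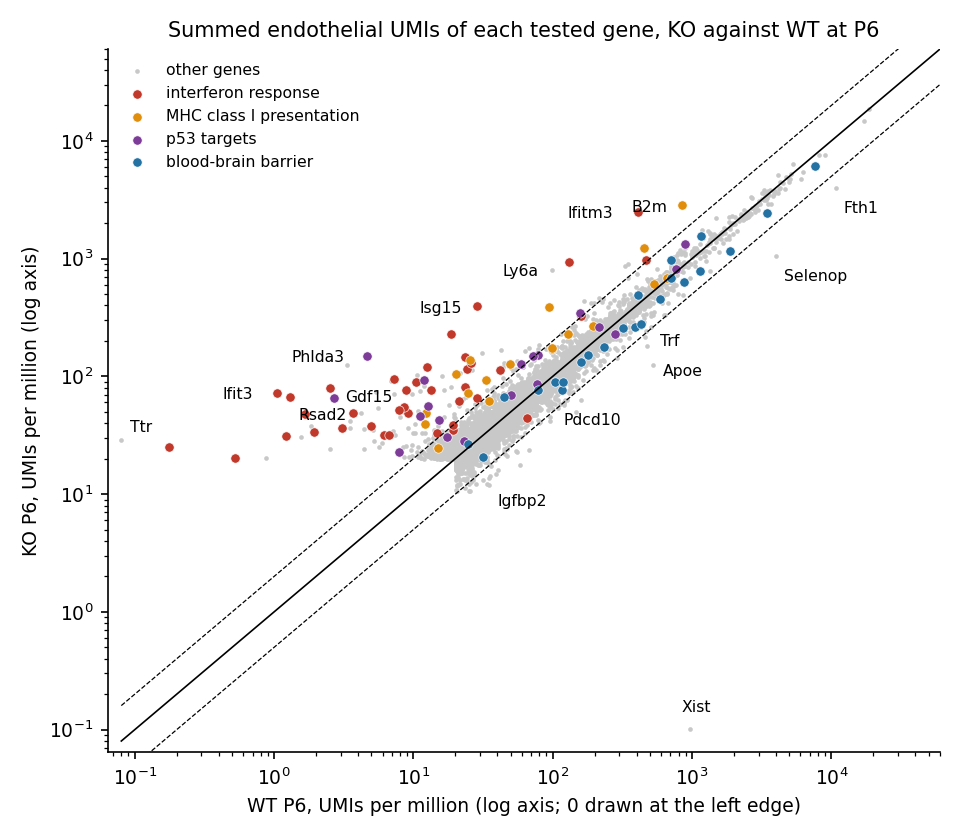
Summed endothelial UMIs (CPM) of each tested gene in WT (horizontal, 0 drawn at the left edge) and KO (vertical) at P6, both on log axes, with the line of equality and dashed lines at 2-fold. The interferon, MHC class I and p53 genes, in colour, lie above the line except Ifi27 and Trp53i11, most barrier genes lie just below it, and Fth1, Selenop, Trf and Apoe lie below the lower dashed line.

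Type I interferons are cytokines that signal through Ifnar1 and Ifnar2 to transcription factors, Irf9 among them, that switch on many antiviral genes. In the KO cells nearly all of these genes were higher. Of 48 listed interferon-response genes in the files, 38 were tested, 36 were at least 2-fold higher and none was 2-fold lower, with a median log2 ratio of 2.67. Many members passed the filter only through their KO level. Among the 13 that had at least 20 CPM in WT already, 12 were at least 2-fold higher, beside 0.990% of all 5456 genes with that WT level. The exception was Ifi27, measured at 65.4 CPM in WT and 44.6 CPM in KO. Together the listed genes made up 1659 CPM in WT and 7521 CPM in KO.

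Antiviral effector genes had some of the highest ratios. Ifit3, an antiviral RNA-binding protein, had 12 UMIs in WT and 721 in KO, or 1.05 against 72.9 CPM, a ratio of 69.6 (39.6 to 135). Its neighbour and near-copy Ifit3b had 2 and 250 UMIs, and reads that fit both copies could be split or lost in counting. Rsad2 (viperin, an antiviral enzyme) was measured at 1.31 CPM in WT and 66.6 CPM in KO. Ifit1 stood at 2.53 and 79.1 CPM, Ifit2 at 1.22 and 30.9 CPM, and the immunity-related GTPase Iigp1 at 1.66 and 47.6 CPM. Oasl1, of the oligoadenylate synthetase family, was at 1.92 and 34.0 CPM and the small mitochondrial protein gene Ifi27l2a at 0.524 and 20.4 CPM.

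The genes already abundant in WT set the total. Ifitm3, which blocks viral entry at membranes, was at 411 CPM in WT and 2503 CPM in KO, the largest gain of any gene in CPM. Bst2 (tetherin) was at 130 and 935 CPM, and Isg15, a ubiquitin-like modifier, at 28.8 CPM (25.8 to 32.1) and 394 CPM (382 to 407). The regulators were higher too. Irf7 was at 18.6 and 231 CPM, a ratio of 12.4, and Irf9 at 28.6 and 65.9 CPM. Usp18, the feedback inhibitor of the receptor, was at 10.4 and 89.7 CPM.

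The receptors and signal carriers of the pathway were close to their WT levels. None of 7 tested genes of this kind was 2-fold apart, beside 2.62% of all tested genes higher and 0.617% lower. The median log2 ratio of the 7 was -0.15. Ifnar1 was at 53.5 and 44.5 CPM, Ifnar2 at 143 and 118 CPM and Jak1 at 56.7 and 56.2 CPM. No listed interferon ligand had enough UMIs to be tested, and no UMI of Ifng, Ifna2 or Ifna4 was found in either library. Ifnb1, which encodes interferon beta, had 0 UMIs in WT and 9 in KO, all 9 in 1 of 857 cells.

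That single cell held 11403 UMIs, had UMIs of 4 of the 6 endothelial genes (39 of Cldn5, 0 of Pecam1) and 0 of the leukocyte gene Ptprc. Its interferon genes summed to 68403 CPM, the highest of all KO cells, where the median cell had 6470 CPM and the next highest 55848 CPM. It also held 378 of the 1224 Ccl5 UMIs and 99 of the 997 Cxcl10 UMIs of the library. Without it the interferon list of the library stood at 7451 CPM, so the higher level did not rest on this cell. Besides it, 1 barcode left out by the filters held 3 Ifnb1 UMIs, and no cell of the WT P6 library did, which allows a share of up to 0.217% of its cells.

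The promoters of many such genes carry a known recognition sequence, the interferon-stimulated response element bound by Irf9 and its partners. Its core was searched as GAAANNGAAA on both strands in RefSeq promoter windows of 300 bases (250 before and 50 after the start, GRCm38.p6). The bases just before the start of 4 interferon genes and of Phlda3, a p53 target that had a ratio of like size, are shown with matches in capitals, 5' to 3' on the strand of the gene. Rsad2 is at chr12:26456453-26456632 (minus), Isg15 at chr4:156200819-156200998 (minus), Ifit3 at chr19:34583349-34583528 (plus), Bst2 at chr8:71537473-71537652 (minus) and Phlda3 at chr1:135765905-135766084 (plus).
Rsad2: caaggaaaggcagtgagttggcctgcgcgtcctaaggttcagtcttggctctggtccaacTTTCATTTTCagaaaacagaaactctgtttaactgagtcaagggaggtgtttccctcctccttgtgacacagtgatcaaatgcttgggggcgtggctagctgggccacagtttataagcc
Isg15: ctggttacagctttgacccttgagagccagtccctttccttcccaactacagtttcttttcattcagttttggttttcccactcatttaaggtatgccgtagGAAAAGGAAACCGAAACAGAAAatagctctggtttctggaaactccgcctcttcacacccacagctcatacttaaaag
Ifit3: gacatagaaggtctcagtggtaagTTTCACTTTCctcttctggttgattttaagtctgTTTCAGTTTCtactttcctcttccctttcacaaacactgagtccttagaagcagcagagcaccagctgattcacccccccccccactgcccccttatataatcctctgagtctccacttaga
Bst2: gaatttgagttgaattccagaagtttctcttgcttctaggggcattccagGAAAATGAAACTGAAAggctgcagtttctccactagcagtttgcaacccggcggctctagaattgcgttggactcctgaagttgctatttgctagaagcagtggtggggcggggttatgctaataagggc
Phlda3: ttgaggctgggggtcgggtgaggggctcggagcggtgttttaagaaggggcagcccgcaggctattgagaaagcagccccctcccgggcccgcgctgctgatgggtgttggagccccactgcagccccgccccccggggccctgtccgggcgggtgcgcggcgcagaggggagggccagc

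The match in Rsad2 starts 120 bases before the transcription start, those in Isg15 overlap and start 78, 72 and 66 bases before it, those in Ifit3 start 156 and 122 bases before it, and those in Bst2 overlap and start 130 and 124 bases before it. The shown window of Phlda3 has none. Of 112 named higher genes with a window, 23 held the core (20.5%), against 1 of 26 lower genes (3.85%) and 4.16% of 4658 tested genes. The core was held by 21 of 35 interferon-response genes, 1 of 20 p53 targets and 2 of 48 higher genes on none of the lists, beside 3.99% of all genes of the table. A second core, the gamma-activated site, was searched as TTCNNNGAA in the same windows. It was held by 15 of the 112 higher genes (13.4%, 7.69 to 21.1) and 7.54% of the tested genes (6.79 to 8.33). Of the 35 interferon-response genes 8 held it, beside 9.55% of all genes of the table. A match is a stretch of letters and was not shown to be bound here.

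**Figure D2:**
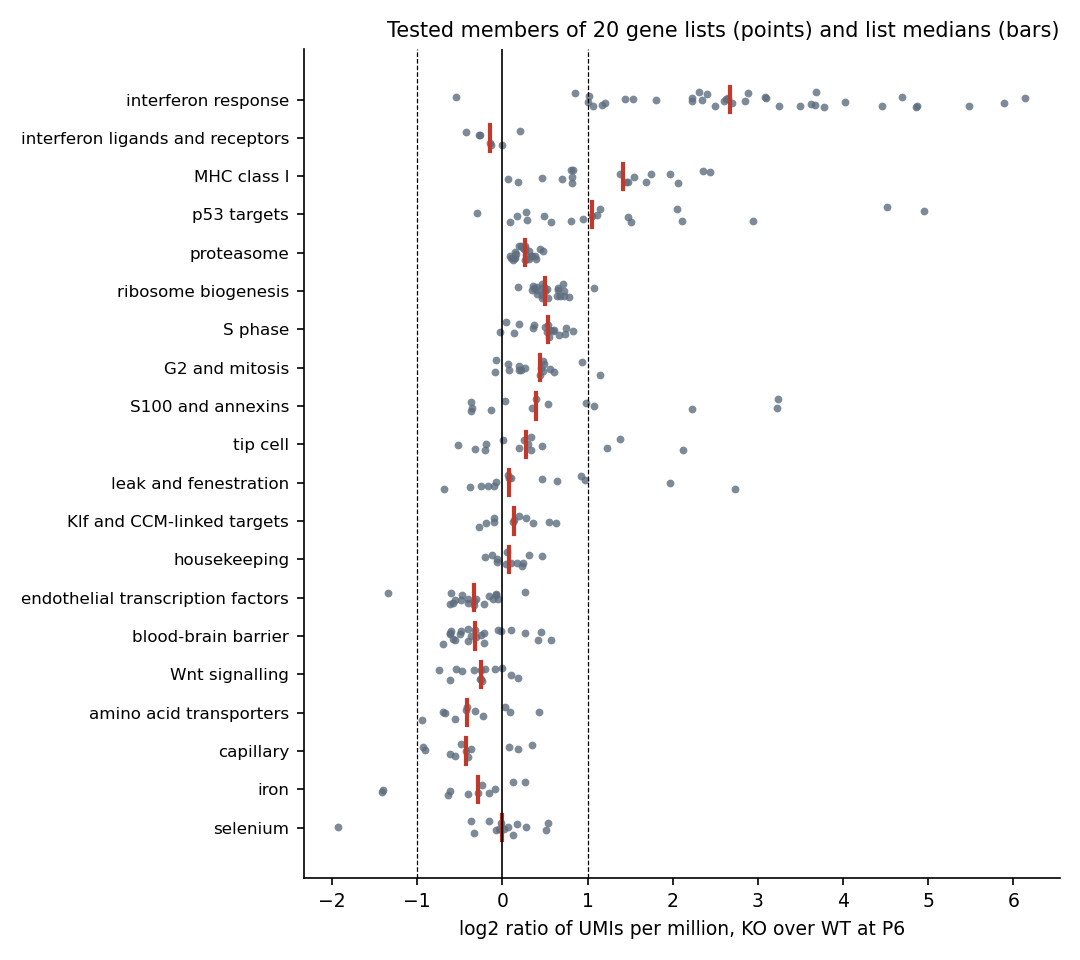
Log2 ratio of KO over WT at P6 for every tested member of 20 gene lists, 1 point per gene, with the list median as a bar and dashed lines at 2-fold. The interferon-response median lies at 2.67, MHC class I at 1.41 and p53 targets at 1.05, while the barrier, Wnt, capillary and endothelial transcription factor lists lie between -0.43 and -0.25.

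Antigen presentation on MHC class I was higher as a whole. All 18 tested genes of the pathway were above their WT level and 10 were at least 2-fold higher, beside 2.62% of all tested genes, with a median log2 ratio of 1.41. Of the 15 members with at least 20 CPM in WT, 8 were 2-fold higher, beside 0.990% of all genes with that WT level. B2m, the invariant light chain, was at 844 CPM in WT and 2838 CPM in KO, a ratio of 3.36 (3.29 to 3.44). The heavy chain genes H2-K1 and H2-D1 stood at 93.7 and 390 CPM and at 453 and 1236 CPM. The peptide pump Tap1 was at 20.1 and 104 CPM, and the immunoproteasome subunits Psmb8, Psmb9 and Psmb10 at 25.4 and 139, 12.4 and 49.3, and 49.1 and 128 CPM. The general chaperones of the pathway differed least, Calr being at 658 and 688 CPM. Close copies among the H2 genes could share reads in counting. The labels give no strain, so whether both libraries carry the same H2 alleles, which differ in sequence between strains, was not tested.

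The constitutive proteasome, by comparison, differed by a small margin in 1 direction. All 24 subunit genes were above their WT level, none by 2-fold, beside 2.62% of all tested genes. Their median log2 ratio was 0.26.

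Of 7 tested chemokine and cytokine genes, 4 were at least 2-fold higher, beside 2.62% of all tested genes: the chemokines Ccl2, Ccl5 and Cxcl10 and the chemokine-binding receptor Ackr1. All 4 passed the filter only through their KO level, and of the 3 members with at least 20 CPM in WT none was 2-fold higher. Ccl5, which attracts T cells, had 38 UMIs in 3 WT cells and 1224 UMIs in 36 KO cells, 80.6% of the latter in 5 cells. Cxcl10, also an interferon-inducible T cell attractant, was at 16.1 CPM in WT and 101 CPM in KO, and 5 cells held 34.9% of its KO UMIs. Among adhesion molecules Vcam1 was at 11.5 and 33 CPM, whereas Icam1 was at 1253 and 963 CPM and Madcam1, a mucosal addressin, at 57.8 and 17.7 CPM.

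p53 switches on genes of cell cycle arrest, repair and cell death after DNA damage and other stress. Of 19 tested targets, 10 were at least 2-fold higher, beside 2.62% of all tested genes, and none was 2-fold lower, with a median log2 ratio of 1.05. Phlda3, which restrains the kinase Akt, had 53 UMIs in WT and 1468 in KO, or 4.63 CPM (3.47 to 6.05) against 149 CPM (141 to 156). Gdf15, a secreted stress cytokine, was at 2.71 and 65.6 CPM, Ccng1 (cyclin G1) at 11.9 and 92.6 CPM, Aen, an exonuclease of apoptosis, at 12.8 and 56.2 CPM, and Zmat3 at 11.1 and 46.4 CPM. Mdm2, the ubiquitin ligase that degrades p53, was at 72.3 and 150 CPM. The pro-apoptotic Bax and Bbc3 were at 158 and 348 CPM and at 58.7 and 127 CPM.

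The members differed widely in ratio. Cdkn1a (p21), the arrest gene of the pathway, was at 888 CPM in WT and 1322 CPM in KO, a ratio of 1.49 (1.45 to 1.53). Trp53i11 was at 279 and 227 CPM and Plk2 at 765 and 815 CPM. Of the 11 members with at least 20 CPM in WT, 3 were 2-fold higher, beside 0.990% of all genes with that WT level, and their median log2 ratio was 0.49.

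Cell cycle genes were slightly above WT. All but 1 of 17 tested S phase genes were above their WT level, with a median log2 ratio of 0.53. None of them was 2-fold higher, beside 2.62% of all tested genes. The 17 G2 and mitosis genes had a median of 0.44. Only Ccnd1, of these 17, reached 2-fold (188 and 417 CPM). Ccnd2, on neither list, was at 63.4 and 164 CPM. After each cell was thinned to 2000 UMIs, 92 of 1336 WT cells (6.89%, 5.59 to 8.38) and 70 of 829 KO cells (8.44%, 6.64 to 10.5) held UMIs of at least 3 of 12 mitotic markers, so the intervals overlap. Without thinning, the shares were 13.7% and 20.5%. Ribosome biogenesis genes were above WT in 24 of 24 cases with a median of 0.50, led by the spermidine synthase gene Srm (54.8 and 116 CPM).

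Several of the highest genes lie outside these groups. Ephx1, a microsomal epoxide hydrolase, was at 1.83 CPM in WT and 38.1 CPM in KO, and Dcxr, a dicarbonyl and xylulose reductase, at 5.41 and 74.2 CPM. Snx20, a sorting nexin, stood at 1.57 and 30.6 CPM and the little-studied Ccdc184 at 0.873 and 20.1 CPM. Of the S100 and annexin genes 4 of 13 were at least 2-fold higher, beside 2.62% of all tested genes, and 1 of the 10 members with at least 20 CPM in WT, S100a11 (199 and 421 CPM). S100a10 and S100a6 were at 10.6 and 102 CPM and at 5.59 and 53.6 CPM, and Anxa1 at 10.8 and 51.3 CPM. Ly6a, a surface antigen also called Sca-1 that interferon induces, was at 99.6 and 799 CPM.

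Genes of angiogenic sprouting were mixed. Apln, the peptide ligand of sprouting tip cells, was at 331 CPM in WT and 863 CPM in KO, with a UMI in 35.1% and 58.4% of thinned cells. Mcam was at 49.9 and 117 CPM and Kcne3 at 5.67 and 25.3 CPM, while the Notch ligand Dll4 was at 135 and 93.9 CPM. Of 15 tested leak-related genes, 9 were above and 6 below WT, with a median log2 ratio of 0.08. Only 2 were at least 2-fold higher, beside 2.62% of all tested genes. These were Igfbp3, at 42.7 and 168 CPM, and Plvap, the protein of fenestral diaphragms, at 5.15 and 35.3 CPM. Plvap passed the filter only through its KO level. After thinning, Plvap was found in 1.05% of WT and 3.14% of KO cells, and 5 cells held 39.0% of its KO UMIs. The caveolar genes Cav1 and Cav2 stood at 250 and 389 CPM and at 89.3 and 170 CPM. Of the genes under the CCM complex, Klf2 was at 885 and 1367 CPM, a ratio of 1.54, and Klf4 at 533 and 649 CPM. None of 11 tested Klf and CCM-linked genes was 2-fold apart, beside 2.62% of all tested genes higher and 0.617% lower. Of the 11, 7 were above and 4 below WT, with a median log2 ratio of 0.14.

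The lower genes were fewer and less extreme, and several encode secreted or storage proteins. Apoe, a lipid carrier, had the lowest ratio among the named genes, at 522 CPM (509 to 535) in WT and 124 CPM (117 to 131) in KO, 4.21-fold lower. In the cells without endothelial genes Apoe was at 137 CPM in WT and 508 CPM in KO, the reverse order. Selenop, which carries selenium, was at 3990 and 1046 CPM, 3.82-fold lower. Fth1, the ferritin heavy chain that stores iron, was at 10739 and 3999 CPM, 2.69-fold lower, and its difference alone made up 8.40% of the summed decrease over all genes. Fth1 has processed pseudogenes in the mouse, so some of its reads could be lost in counting in both libraries.

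Most iron genes were below WT, by less than Fth1. Trf, which encodes transferrin, was at 476 and 180 CPM. The receptor Tfrc was at 235 and 177 CPM and the exporter Slc40a1 at 356 and 291 CPM, and the light chain gene Ftl1 stood at 2691 CPM in WT and 3250 CPM in KO. Of 11 tested iron genes 9 were below WT and 2 were 2-fold lower, beside 0.617% of all tested genes, with a median log2 ratio of -0.29. Of 14 selenium genes only Selenop was 2-fold lower, and their median was 0.00.

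The remaining low genes had WT levels under 200 CPM. Enpp2, which makes lysophosphatidic acid, was at 160 and 63.1 CPM, and Rpap3, a chaperone cofactor, at 146 and 49.9 CPM. Scgb3a1, a secretoglobin, was at 67.0 and 23.7 CPM, Igfbp2, which binds insulin-like growth factors, at 34.9 and 12 CPM, the kinase Sgk3 at 55.4 and 22.9 CPM, and Myzap, a junction-associated protein, at 39.3 and 14.9 CPM. Ddc, the aromatic amino acid decarboxylase, was at 35.1 and 13.6 CPM, the erythropoietin receptor Epor at 35.3 and 14.2 CPM, and the transcription factor Pou2f2 at 40.4 and 15.9 CPM. Fxyd6, a sodium pump subunit, was at 33.6 and 12.2 CPM in the endothelial cells and at 806 and 726 CPM in the cells without endothelial genes. How far free RNA of those cells enters its endothelial level was not tested.

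Barrier genes were lower by a small margin and none by 2-fold, beside 0.617% of all tested genes. Of 23 tested blood-brain barrier genes, 18 were below their WT level, the median log2 ratio was -0.32, and their sum was 20774 CPM in WT and 16956 CPM in KO. The tight junction gene Cldn5, which is also 1 of the 6 genes of the cell rule, was at 7613 and 6103 CPM and Tjp1 at 117 and 76.6 CPM. The large neutral amino acid carrier subunits Slc7a5 and Slc3a2 were at 1148 and 780 CPM and at 1868 and 1152 CPM. The lipid carrier Mfsd2a, the Cre driver, was at 592 and 456 CPM. The glucose carrier Slc2a1 went the other way, at 705 and 964 CPM, as did Pglyrp1 at 1169 and 1562 CPM. When mitotic cells were left out the barrier median was -0.23, and when each cell was given the same weight it was -0.22.

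Neighbouring programmes were lower by like amounts. Of 14 Wnt signalling genes 11 were below WT, with a median of -0.25. The Wnt target Apcdd1 was at 453 and 312 CPM, Nkd1 at 135 and 80.8 CPM and the factor Lef1 at 109 and 71.2 CPM, while Ctnnb1 was at 276 and 295 CPM. Endothelial transcription factors were below WT in 18 of 19 cases (median -0.33), among them Foxq1 at 391 and 262 CPM and Gata2 at 152 and 103 CPM. Of 11 capillary genes 8 were below WT, with a median of -0.43. When mitotic cells were left out, the capillary median was -0.25 and that of the endothelial transcription factors -0.22. Car4, a carbonic anhydrase of capillaries, was at 637 and 335 CPM and Spock2 at 628 and 335 CPM.

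The share of cells with a transcript was compared after thinning every cell to 2000 UMIs, which left out 44 WT and 28 KO cells. Isg15 was found in 5.91% of WT and 46.4% of KO cells, against 16.7% and 82.0% without thinning. Among cells without endothelial genes, whose median depth was 2912 UMIs in WT and 4428 in KO, Isg15 was found after thinning in 0 of 29 WT cells, which allows a share of up to 10.3%, and in 2 of 36 KO cells (5.56%). Phlda3 was found in 0.898% and 23.8% of thinned endothelial cells and Ifit3 in 0.374% and 11.9%. Selenop was found in 96.0% of WT and 71.7% of KO cells, Trf in 47.3% and 26.4% and Apoe in 40.0% and 16.6%.

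**Figure D3:**
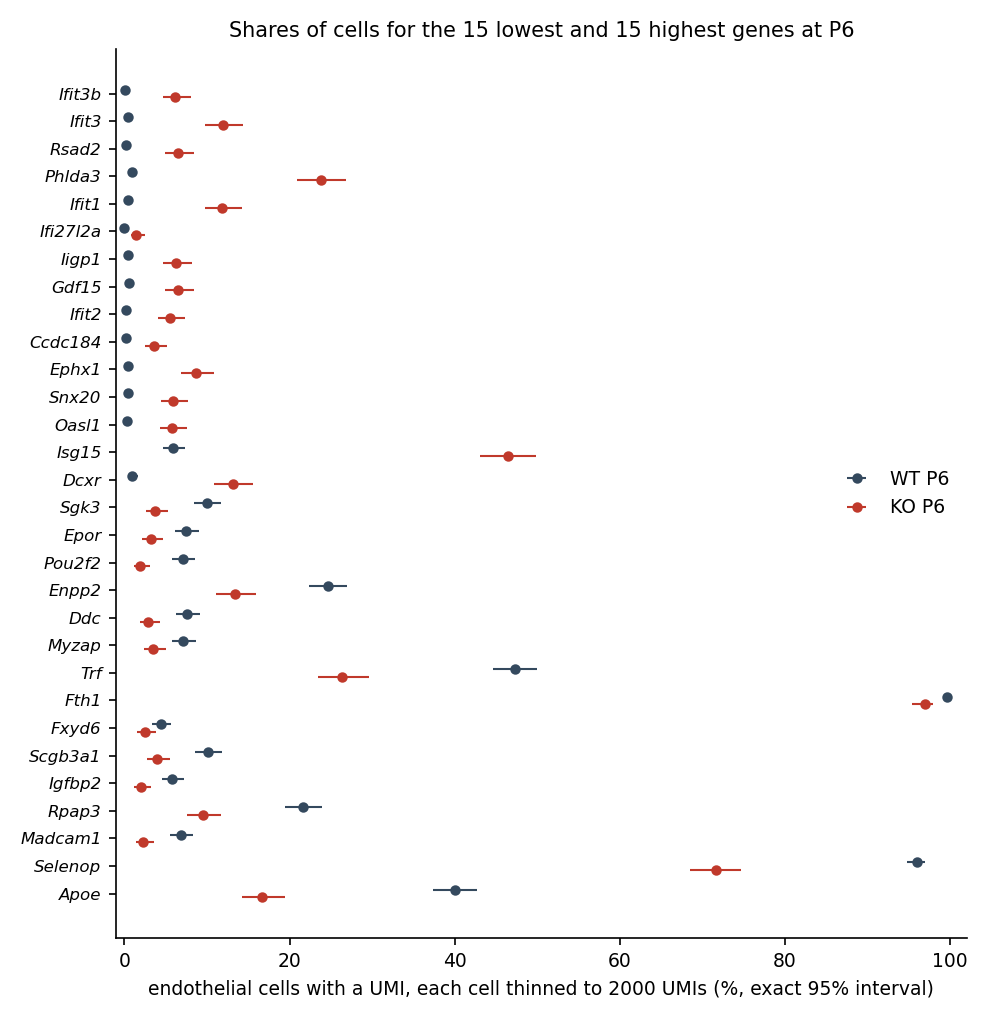
Share of endothelial cells with at least 1 UMI after thinning to 2000 UMIs per cell, for the 15 genes with the highest and the 15 with the lowest ratio at P6 (rows, ordered by ratio), WT in dark blue and KO in red, with exact 95% intervals. Isg15 and Phlda3 reach 46.4% and 23.8% of KO cells, and Selenop and Fth1 are found in most cells of both libraries.

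The interferon signal was spread over most KO cells. Per 2000 UMIs, the median WT cell held 3 UMIs of the interferon list (quartiles 2 and 5) and the median KO cell 13 (quartiles 8 and 19). No KO cell was at 0, against 104 WT cells, and 69.5% of KO cells (66.2 to 72.6) lay above the 95th percentile of WT, 9 UMIs, beside 3.22% of WT cells. At least 5 different interferon genes were found in 79.4% of KO and 11.3% of WT cells. The upper tail was long, with a highest KO cell of 139 UMIs and a highest WT cell of 24. MHC class I genes were shifted likewise, from a median of 6 to 13 UMIs. The p53 targets were shifted less, from 5 to 7 UMIs, and 20.7% of KO cells lay above the WT 95th percentile.

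The barrier list spread towards low values. The median KO cell held 35 UMIs of it and the median WT cell 42, while 21.6% of KO cells and 4.87% of WT cells lay below the WT 5th percentile of 21 UMIs. The upper ends coincided, with 5.07% and 4.94% of cells above the WT 95th percentile. Cells with mitotic markers had lower barrier levels in both libraries, 15801 against 21276 CPM in WT and 11394 against 17760 CPM in KO.

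**Figure D4:**
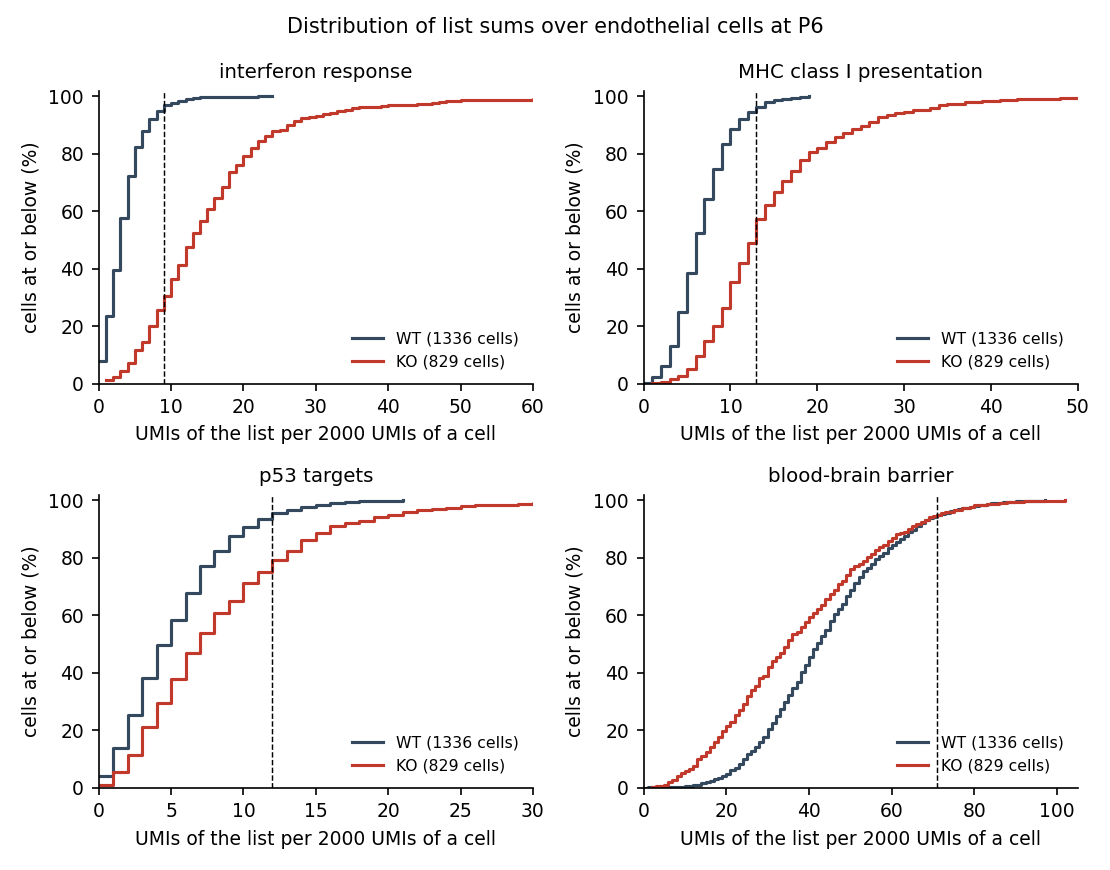
Cumulative share of WT (dark blue) and KO (red) endothelial cells at or below a given number of UMIs of 4 gene lists per 2000 UMIs of a cell, with the WT 95th percentile dashed. The KO curve lies to the right for the interferon (medians 3 and 13 UMIs), MHC class I and p53 lists, and to the left for the barrier list in its lower part (medians 42 and 35).

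Within the KO library, cells were divided into 4 ranges of near-equal size by their thinned interferon sum, from 1 to 8 UMIs in the lowest range and from 19 to 139 in the highest. These are ranges of a score, not cell types, and cells with a sum at a limit fall on either side of it. The MHC class I level followed the order of the ranges, 5262, 6214, 7401 and 10921 CPM, and so did Ly6a, 393, 659, 845 and 1359 CPM. The same order held in WT, at 3080, 3223, 3350 and 3756 CPM for MHC class I and 56.9, 91.4, 96.2 and 158 CPM for Ly6a. In KO the p53 targets did not follow the order, at 4146, 3892, 4131 and 4585 CPM, and Pdcd10 was at 61.7, 56.7, 54.1 and 61.0 CPM. The barrier list was at 17094, 18117, 17531 and 14844 CPM in KO. Selenop was at 904, 969, 1181 and 1147 CPM, and Fth1 at 4270, 3915, 4131 and 3685 CPM, below their WT levels in every range. The lowest range still held 3888 CPM of the interferon list, against 1659 CPM in WT. Whether the levels of Selenop and Fth1 are tied to the interferon signal was not tested. Cells with arterial markers made up 4.33% of the lowest and 17.9% of the highest range, and in WT, divided in the same way, 6.29% and 16.2%.

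Cells were also divided by arterial and venous marker genes, which gives ranges of a score, not cell types. The interferon, MHC class I, p53 and barrier lists each differed from WT in the same direction in all of these ranges. After thinning, cells with UMIs of at least 2 arterial genes and fewer venous ones made up 8.01% of WT and 9.89% of KO cells. Cells with the converse made up 57.9% and 40.8%, and 227 of 455 unmarked WT cells and 228 of 409 unmarked KO cells held a single such gene, next to the limit. The genes that set these ranges differed between the libraries themselves: 4 of 5 tested venous ones were below WT (median log2 ratio -0.31) and 4 of 6 arterial ones above (0.55). Of those with at least 20 CPM in WT, all 4 venous ones were below WT (median -0.45), and 1 of 3 arterial ones was above (-0.33). The arterial genes summed to 521 CPM in WT and 491 CPM in KO, the venous ones to 1955 and 1533 CPM. The part of these genes in the shares was not tested. The interferon list was 4.41-fold higher in arterial-marked cells (2388 and 10538 CPM), 4.42-fold in venous-marked cells (1552 and 6858 CPM) and 4.50-fold in unmarked cells (1689 and 7601 CPM). Some genes differed between the ranges. Apln was 2.92-fold higher in venous-marked (2.77 to 3.08) and 1.20-fold (0.935 to 1.53) in arterial-marked cells. Cdkn1a was 1.55-fold higher in the former and at 0.968 of WT (0.867 to 1.08) in the latter. Selenop was at 0.249 of WT in venous-marked and at 0.501 in arterial-marked cells. Whether these differences between ranges exceed the spread between animals was not tested.

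The same comparison 4 days later, in another pair of libraries of the same genotypes that were also given tamoxifen at P1, gave 160 of 5837 genes at least 2-fold higher (2.74%) and 89 lower (1.52%). Across 5473 genes tested at both ages, without the 6 genes of the cell rule, the log2 ratios had a Pearson r of 0.72 and a Spearman rho of 0.66, as a description over genes, which are not independent replicates. Of the 153 genes higher at P6, 120 were tested at P10 and 77 were 2-fold higher there, which is 50.3% of the P6 and 48.1% of the P10 genes. Of the 36 lower at P6, 27 were tested and 11 were 2-fold lower, or 30.6% of the P6 and 12.4% of the P10 genes.

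The groups had different weights at the 2 ages. The interferon median was 2.67 at P6 and 1.41 at P10, MHC class I 1.41 and 0.45, and p53 targets 1.05 and 0.56. Each median is over the genes tested at that age, 38 and 25 for interferon and 17 and 13 for G2 and mitosis. Interferon genes under the filter at P10 included Ifit3b (P10 log2 ratio 4.8) and Samd9l (0.56). All listed interferon genes summed to 1659 and 7521 CPM in WT and KO at P6, and to 1569 and 3722 CPM at P10. The G2 and mitosis genes had 0.44 at P6 and 1.63 at P10, the barrier genes -0.32 and -0.61, and Plvap log2 ratios of 2.73 and 4.44. The heavy chain genes H2-K1 and H2-D1 had log2 ratios of 2.06 and 1.45 at P6 and of -0.36 and -0.02 at P10, where WT already stood at 275 and 802 CPM against 214 and 789 CPM in KO. The partners B2m and Tap1 were above WT at both ages (log2 ratios of 1.75 and 2.36, then 1.11 and 1.66). The metallothioneins Mt1 and Mt2 had log2 ratios of 2.29 and 2.85 at P6 and of -0.19 and -0.18 at P10, and 5 cells held 34.6% and 40.3% of their KO UMIs at P6. Phlda3 was at 4.95 and 4.64 and Selenop at -1.93 and -1.76. No test of the difference between ages could be made with 1 library per group.

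**Figure D5:**
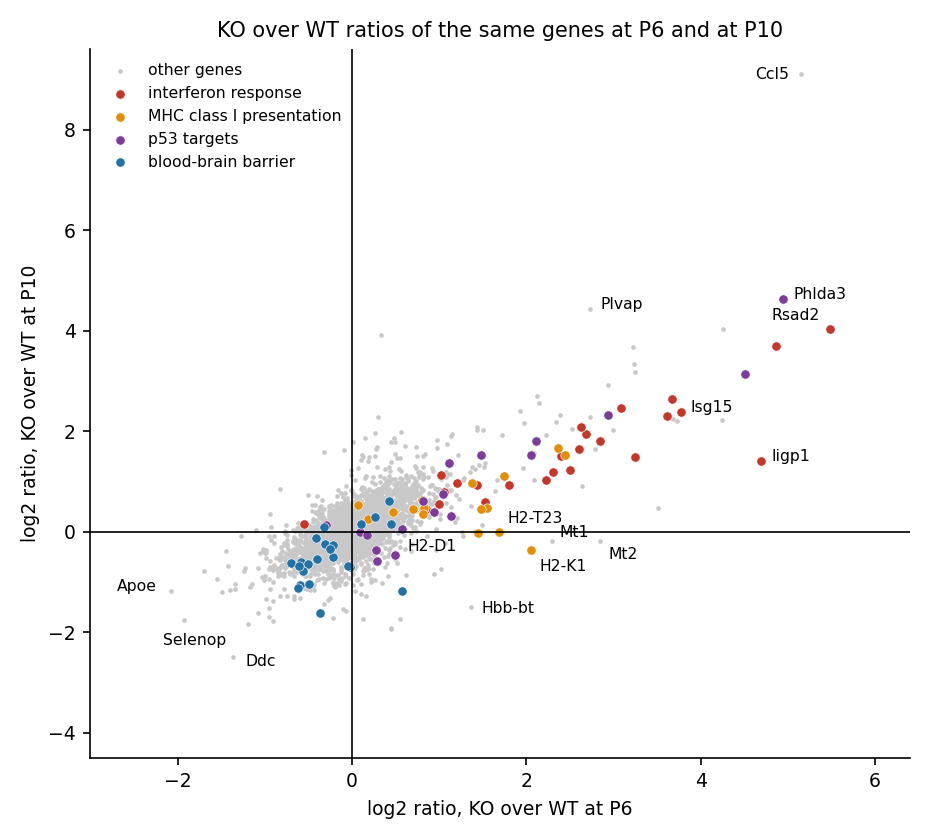
Log2 ratio of KO over WT at P6 (horizontal) and at P10 (vertical) for each of the 5479 genes tested at both ages, from 4 separate libraries. Phlda3 and the interferon genes lie in the upper right, H2-K1, H2-D1, Mt1 and Mt2 lie to the right near 0 at P10, and Apoe, Selenop and Ddc lie in the lower left.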

How the data were processed

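Cells were dissociated, sorted by flow cytometry (gate not given in the sources used here) and captured with 10x Genomics 3' chemistry, per the labels. The authors deposited whole-number UMI counts per gene and barcode, made with Cell Ranger 6.0.1 against mm10, per the submitters' processing notes. All 32285 genes were read, and the features and barcodes files name them. WT P6, KO P6 and, beside them, WT P10 and KO P10 are 1 library each. UMIs were summed over endothelial cells, scaled to CPM by endothelial totals (11456857 in WT, 9883763 in KO) and compared without a test. Intervals are exact Poisson, Clopper-Pearson and conditional binomial intervals at 95% (scipy 1.17.1). A gene at 20 CPM thus rests on about 200 UMIs. No doublets were removed in the reported values. Scrublet (scanpy 1.11.5) marked 0 WT and 1 KO cells by its own threshold. Gene positions came from GENCODE vM21 (GRCm38; 32158 identifiers matched), and promoters from RefSeq. The procedure was checked on simulated data. Named genes are the 15 highest and 15 lowest ratios among genes found in at least 5% of cells of the higher library, without mitochondrial, ribosomal, haemoglobin, sex-linked, unnamed and rule genes, and members of 45 fixed gene lists. The members and lists were chosen with earlier results of these data known. Other scalings (TMM, edgeR 4.0.16), filters, cell rules and thinning depths were tried.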

Additional observations from a re-analysis of the deposited data

Results flagged for a closer look

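Interferon genes were also higher in kept P6 cells outside the comparison. The cells with none of the 6 endothelial genes held 1243 CPM of the list in KO (43 cells) and 587 CPM in WT (46 cells), a ratio of 2.12 (1.66 to 2.73, counting error only), which was above the level in the control library. Those among them with neuronal or granule neuron markers held 524 CPM in KO (34 cells) and 365 CPM in WT (31 cells), with 0 Isg15 UMIs in both, while all 43 KO cells together held 19 Isg15 UMIs. How much of this is free RNA or RNA of endothelial fragments was not tested.

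Hbb-bt, a haemoglobin beta-chain gene of red cells, had a log2 ratio of 1.37 at P6 and of -1.5 at P10, the only gene 2-fold apart in opposite directions among those that passed the filter at both ages. Its P6 levels were 67.3 (WT) and 174 CPM (KO), and its P10 levels 764 and 270 CPM. The difference between the ages was not tested.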

How the results depend on the processing

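The Pdcd10 ratio, the interferon and barrier medians, and the 47 other gene ratios and list medians recomputed kept their direction under every alternative run, 11 to 16 for each. Other lists and genes were not recomputed. Leaving out cells with pericyte markers, and leaving out X-linked genes, were chosen after seeing the data, and gave 164 and 41, and 151 and 35 higher and lower genes. The counts of 153 higher and 36 lower genes became 84 and 19 with a 50 CPM minimum, 379 and 134 with no CPM minimum, and 371 and 202 at 1.5-fold, which follows from how many genes each admits. The interferon median stayed between 2.52 and 2.77. The barrier median was -0.23 without mitotic cells and -0.22 as a mean of per-cell CPM, and the cause was not tested. The shares of mitotic cells, 6.89% in WT and 8.44% in KO, were 3.49% and 4.47% thinned to 1000 UMIs, 13.7% and 20.5% without thinning, 22.7% and 25.3% with at least 1 marker, and 10.3% and 12.4% with at least 2. Of the 730 log2 values of those 47, 685 stayed within their counting interval. No paired analysis was possible because each group is 1 library, and none could be left out. Shares of cells depend on depth: Isg15 was found in 82.0% of KO cells without thinning and in 46.4% at 2000 UMIs.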

Other observations

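Some genes owed their KO level to few cells. They were chosen here after their values were seen. Ttr (transthyretin) had 0 UMIs in 1380 WT cells and 285 UMIs in 16 of 857 KO cells, 95.4% of them in 5 cells. The exact 95% lower limit of its ratio of KO over WT was 89.0. Eln (elastin) had 411 KO UMIs, of which 341 were in 1 cell. Mgp, a marker of larger vessels, had 73.5% of its KO UMIs in 5 cells, the venous chemokine receptor Ackr1 had 195 of 390 there, and the protease inhibitor Serpina3g 52.6%. Beside these, Isg15 and Phlda3 had 7.37% and 5.99% of their KO UMIs in the 5 highest cells.

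Of the 183 named genes at least 2-fold apart, 65 higher and 28 lower ones were on none of the gene lists. Among the higher ones, chosen here after their values were seen, were the arginine-synthesis enzyme Ass1 (12 and 83.6 CPM in WT and KO), the uridine phosphorylase Upp1 (4.45 and 35.4 CPM), the DNA repair protein Mgmt (8.55 and 50.2 CPM), the host transcript of small nucleolar RNAs Snhg15 (11.1 and 74.6 CPM), the growth factor Gas6 (26.4 and 114 CPM) and the necroptosis effector Mlkl (9.95 and 33.2 CPM). Among the lower ones was the nucleoside carrier Slc29a1 (288 and 142 CPM). Another such host transcript, Snhg9, had P6 levels of 7.16 (WT) and 34.4 CPM (KO) and P10 levels of 15.3 and 7.08 CPM, under the filter of 20 CPM.

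Both P10 libraries held Y-linked UMIs (2988 in WT, 2763 in KO) and almost no Xist UMIs (3 and 4), so the KO P6 library, with 1 Xist and 2 Y-linked UMIs, was the only P6 or P10 library that held neither in quantity.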
